A study of Mus musculus with 6 samples.

Results

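The 39 type I interferon stimulated genes described here were taken as a fixed list and found by Entrez identifier among the 16058 identifiers of the series, and all 39 were listed in each of the 6 libraries. The libraries hold RNA from 3 macrophage populations sorted by Ly6c and F4/80 from the spleen of C57BL/6 mice aged 6 to 8 weeks: Ly6chiF4/80lo, Ly6cloF4/80lo and Ly6cloF4/80hi. Each population was sequenced once from normal spleen (day 0, labelled control) and once from spleen with T cell acute lymphoblastic leukemia (T-ALL) at day 15 after transfer of 1000000 GFP+ leukemia cells into mice that were not irradiated. The labels name no further allele or treatment, and they give neither how many mice were pooled nor whether the 3 populations of a state came from the same mice. With 1 library for each population and state, the p-values below measure the spread between these sorted fractions, which may be technical.

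Type I interferons bind the receptor IFNAR1/IFNAR2, whose kinases JAK1 and TYK2 pass the signal to the transcription factor complex ISGF3, which holds STAT2 and IRF9 and binds the interferon stimulated response element in the promoters of the genes described here. Many of these genes encode antiviral proteins, and others feed back on the pathway as sensors, signal carriers or brakes. Spleen macrophages express many of them at a resting level without infection.

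Letters of this element were found in the promoters of many of the genes. The motif searched was TTTC, any 2 bases and TTTC again, on both strands (GAAA, any 2 bases and GAAA on the other), in the RefSeq promoters of GRCm38.p6, which run from 250 bases before to 50 bases after each start site. Of the 39 genes 28 had a promoter in that table, and 14 of these 28 held at least 1 match, against 3.99% of all 27025 genes in the table. The genes with a match were Ifit1, Ifit3, Isg15, Oas1a, Oas3, Rsad2, Ifih1, Ddx58, Stat2, Trim30a, Eif2ak2, Bst2, Ifitm3 and Ifi208. The matches in Isg15, Bst2 and Oas1a overlapped one another. The 150 bases before the start site are shown for 5 genes with a match and for Isg20, the member with the largest change in T-ALL, whose 3 promoter windows in the table held none. Capitals mark the matches, and each sequence runs 5′ to 3′ on the strand of its gene.
Isg15, chr4:156200819-156200968, minus strand: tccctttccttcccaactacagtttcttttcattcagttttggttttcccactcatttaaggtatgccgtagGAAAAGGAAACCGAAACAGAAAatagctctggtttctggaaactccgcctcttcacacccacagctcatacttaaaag
Ifit3, chr19:34583379-34583528, plus strand: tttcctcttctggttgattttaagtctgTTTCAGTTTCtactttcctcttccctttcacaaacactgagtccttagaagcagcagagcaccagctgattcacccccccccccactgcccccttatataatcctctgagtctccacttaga
Ifit1, chr19:34640739-34640888, plus strand: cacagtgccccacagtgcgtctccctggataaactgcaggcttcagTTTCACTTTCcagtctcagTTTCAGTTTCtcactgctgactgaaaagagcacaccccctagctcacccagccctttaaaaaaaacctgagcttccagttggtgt
Rsad2, chr12:26456453-26456602, minus strand: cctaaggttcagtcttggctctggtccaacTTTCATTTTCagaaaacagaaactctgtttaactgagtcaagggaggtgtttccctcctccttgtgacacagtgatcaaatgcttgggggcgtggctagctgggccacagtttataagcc
Oas3, chr5:120777660-120777809, minus strand: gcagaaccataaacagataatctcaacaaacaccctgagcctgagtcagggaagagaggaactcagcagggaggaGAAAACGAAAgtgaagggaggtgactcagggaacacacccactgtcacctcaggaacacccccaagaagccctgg
Isg20, chr7:78913274-78913423, plus strand: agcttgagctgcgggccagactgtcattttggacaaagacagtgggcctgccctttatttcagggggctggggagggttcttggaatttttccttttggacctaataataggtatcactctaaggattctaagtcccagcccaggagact
A match is a description of the letters and not evidence of binding. The promoter of Ifit3 held a further match, which begins 156 bases before the start and lies outside the stretch shown. With T-ALL, the 14 genes with a match had a median log2 change of -0.25 and the 14 without one -0.15, and the ranges overlapped widely (-0.80 to 0.55 and -0.66 to 1.76). The 11 members without a promoter in the table had a median of -0.43, and 4 of the 7 members that passed (Mx1, Mx2, Oas2 and Zbp1) were among them.

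The values are FPKM, fragments scaled to transcript length and to library size, so levels can be compared between genes. Depth, recovered from the spacing of low FPKM values, was 6540000 to 8440000 fragments per library. At the lowest level of each member this gave a counting error of 15.7% for Ifi44, 13.9% for Mx2 and at most 10.1% for the other 36 with an annotated length (Mx1 had none). The sort antigens followed the gates: Ly6c2 had 482 FPKM in normal Ly6chiF4/80lo, 1405 FPKM in T-ALL Ly6chiF4/80lo and 11.8 to 21.4 FPKM in the other 4 libraries, and Adgre1, which encodes F4/80, stood at 529 and 234 FPKM in Ly6cloF4/80hi and at 47.3 to 86.7 FPKM elsewhere. Markers of other cells were present in every library and several lists of them moved with state, and their part in the results was not tested. The 11 T cell genes went from 155 to 88.3 FPKM in Ly6chiF4/80lo and from 159 to 96.6 FPKM in Ly6cloF4/80lo as sums. In Ly6cloF4/80hi their sum went from 74.9 to 118 FPKM, with 9 of the 11 higher. Whether leukemia cells gave these transcripts was not tested. The 8 B cell genes summed to 1418, 3432 and 1795 FPKM in normal Ly6chiF4/80lo, Ly6cloF4/80lo and Ly6cloF4/80hi. In T-ALL they summed to 1180, 2343 and 1876 FPKM in the same order, and none of the 8 passed with T-ALL. Summed over 16 erythroid genes the level went from 683 to 6491 FPKM in Ly6cloF4/80lo and from 5276 to 41329 FPKM in Ly6cloF4/80hi, against 916 and 957 FPKM in Ly6chiF4/80lo. Summed over 12 neutrophil genes it went from 13569 to 45407 FPKM in Ly6chiF4/80lo, against 132 to 421 FPKM in the other 4 libraries. Of 15 red pulp macrophage genes 13 fell with T-ALL, and their sum went from 965 to 471, from 1125 to 458 and from 19892 to 7904 FPKM in Ly6chiF4/80lo, Ly6cloF4/80lo and Ly6cloF4/80hi. Of 8 myeloid progenitor genes 7 rose, and their sum went from 245 to 1753, from 78.4 to 348 and from 29.3 to 93.8 FPKM in that order. Of 10 cell cycle genes 9 rose, and their sum went from 189 to 715, from 271 to 805 and from 207 to 1086 FPKM. In such sorted bulk samples, fewer cells of a type and less RNA per cell cannot be told apart.

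Most of the genes were expressed at a moderate level, and the levels spread widely between members. Ifitm3, a membrane protein that blocks entry of viruses, was the highest, at 242 to 1381 FPKM, followed by Ifi27l2a at 327 to 777 FPKM. Ifi44 was the lowest, at 1.79 to 5.60 FPKM, next to Mx2 at 2.55 to 7.86 FPKM. The median over the 39 genes was 35.0, 28.6 and 26.5 FPKM in normal Ly6chiF4/80lo, Ly6cloF4/80lo and Ly6cloF4/80hi, and 24.4, 24.0 and 26.7 FPKM in T-ALL in the same order. Of the 39 genes, 29 had their highest level in a normal library (12, 3 and 14 in that order) and 10 in a T-ALL library (4, 1 and 5). The same count over all tested genes is not given here, so this split only describes the members.

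**Figure D1:**
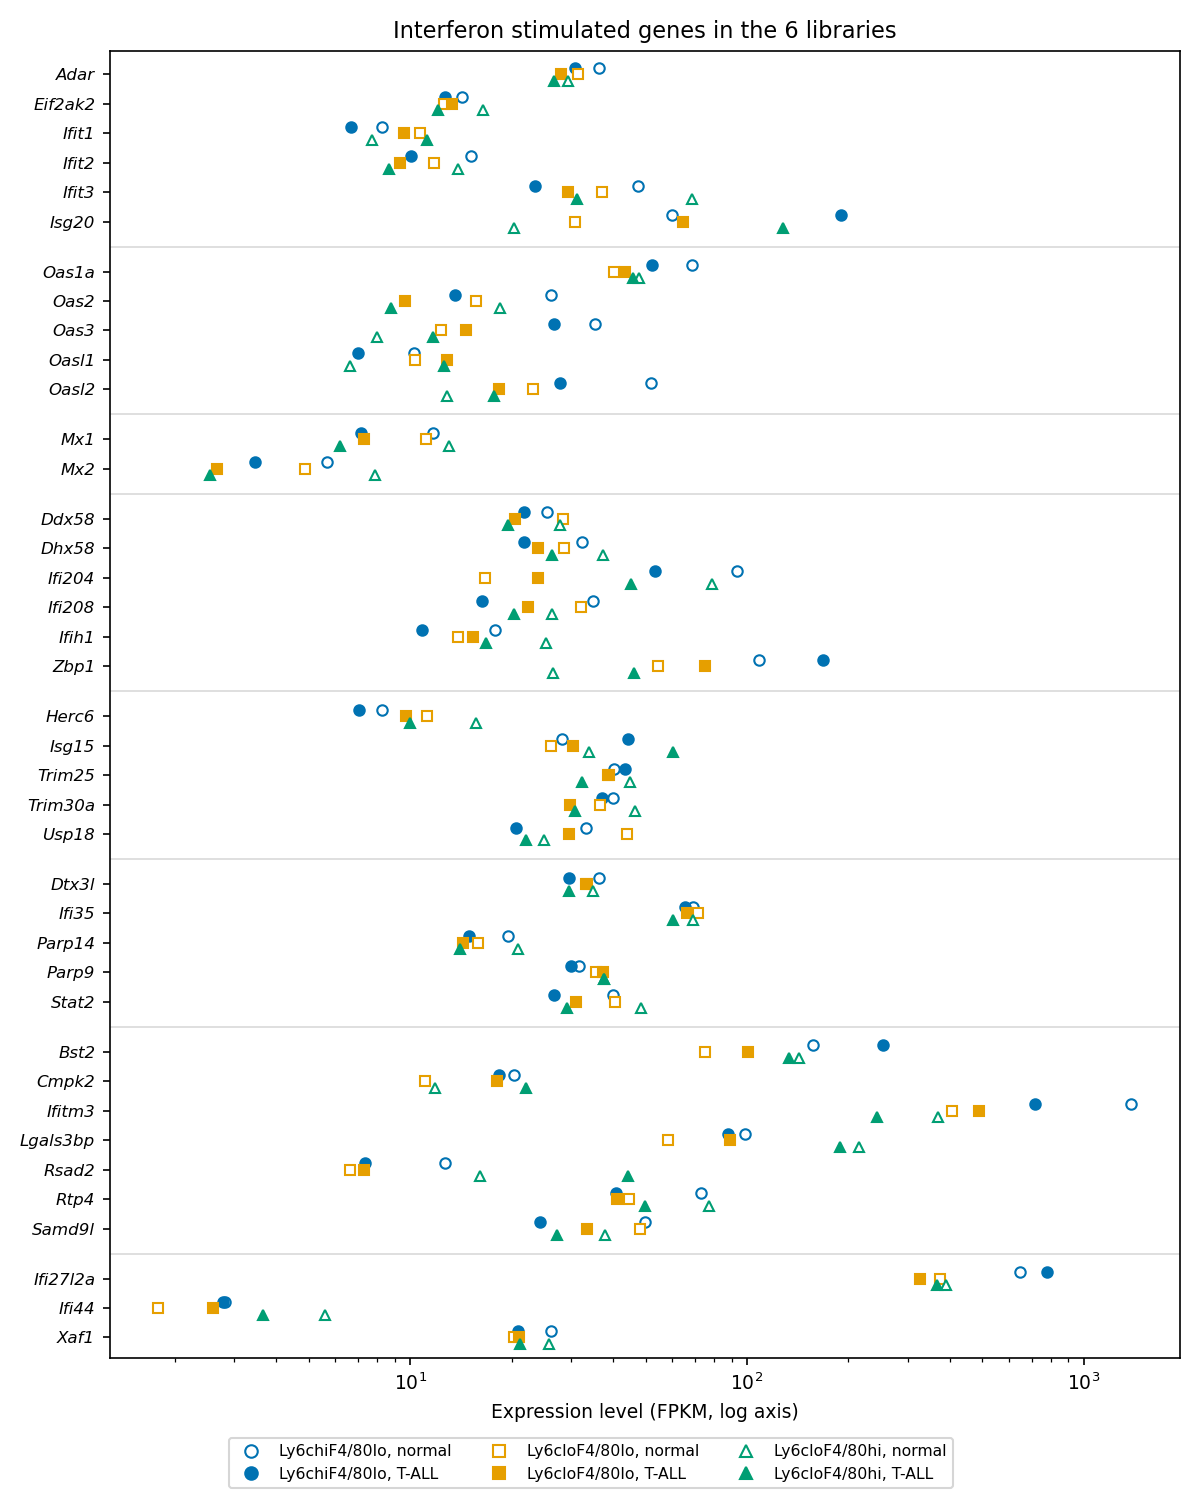
Expression level of the 39 interferon stimulated genes (FPKM, log axis), grouped by role from top to bottom, with open symbols for the normal and filled symbols for the T-ALL library of each population (1 library each, no error bars). The filled symbols of Mx1, Mx2, Oas2 and Ifit3 all lie to the left of the open ones, and those of Isg20 all lie to the right.

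In T-ALL more of the 39 genes had lower than higher levels. Mx1, Mx2, Oas2, Ifit3 and Samd9l fell and Isg20 and Zbp1 rose, while 32 of the 39 did not pass (limma on all 6 libraries with population as a block, two-sided, Benjamini-Hochberg adjusted p under 0.05 over 11616 genes). Of the 39 genes 5 fell, against 3.94% of all tested genes that fell, and 2 rose, against 8.20% that rose (12.1% in either direction). The fitted log2 change was below 0 for 29 of the 39, against 52.5% of all tested genes, with a median of -0.18 against -0.03. In 12 of the 39 (30.8%) all 3 T-ALL libraries lay below all 3 normal ones, a pattern that 10.9% of tested genes showed. These were Ifit2, Ifit3, Mx1, Mx2, Oas2, Ddx58, Dhx58, Stat2, Ifi35, Parp14, Ifi208 and Samd9l. Lower values in all 3 populations were found for 17 members (43.6%), against 30.0% of tested genes, and higher values in all 3 for Isg15, Isg20 and Zbp1 (7.69%), against 27.9%. Among the members Isg20 alone was found with all 3 T-ALL libraries above all 3 normal ones, against 13.8% of tested genes. At an unadjusted p under 0.05, 15 of the 39 differed, against 34.8% of tested genes. Without the population block none of the 39 passed in limma (11 at an unadjusted p under 0.05, against 17.4% of tested genes), and with no filter on low values none passed either (15, against 26.7%).

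**Figure D2:**
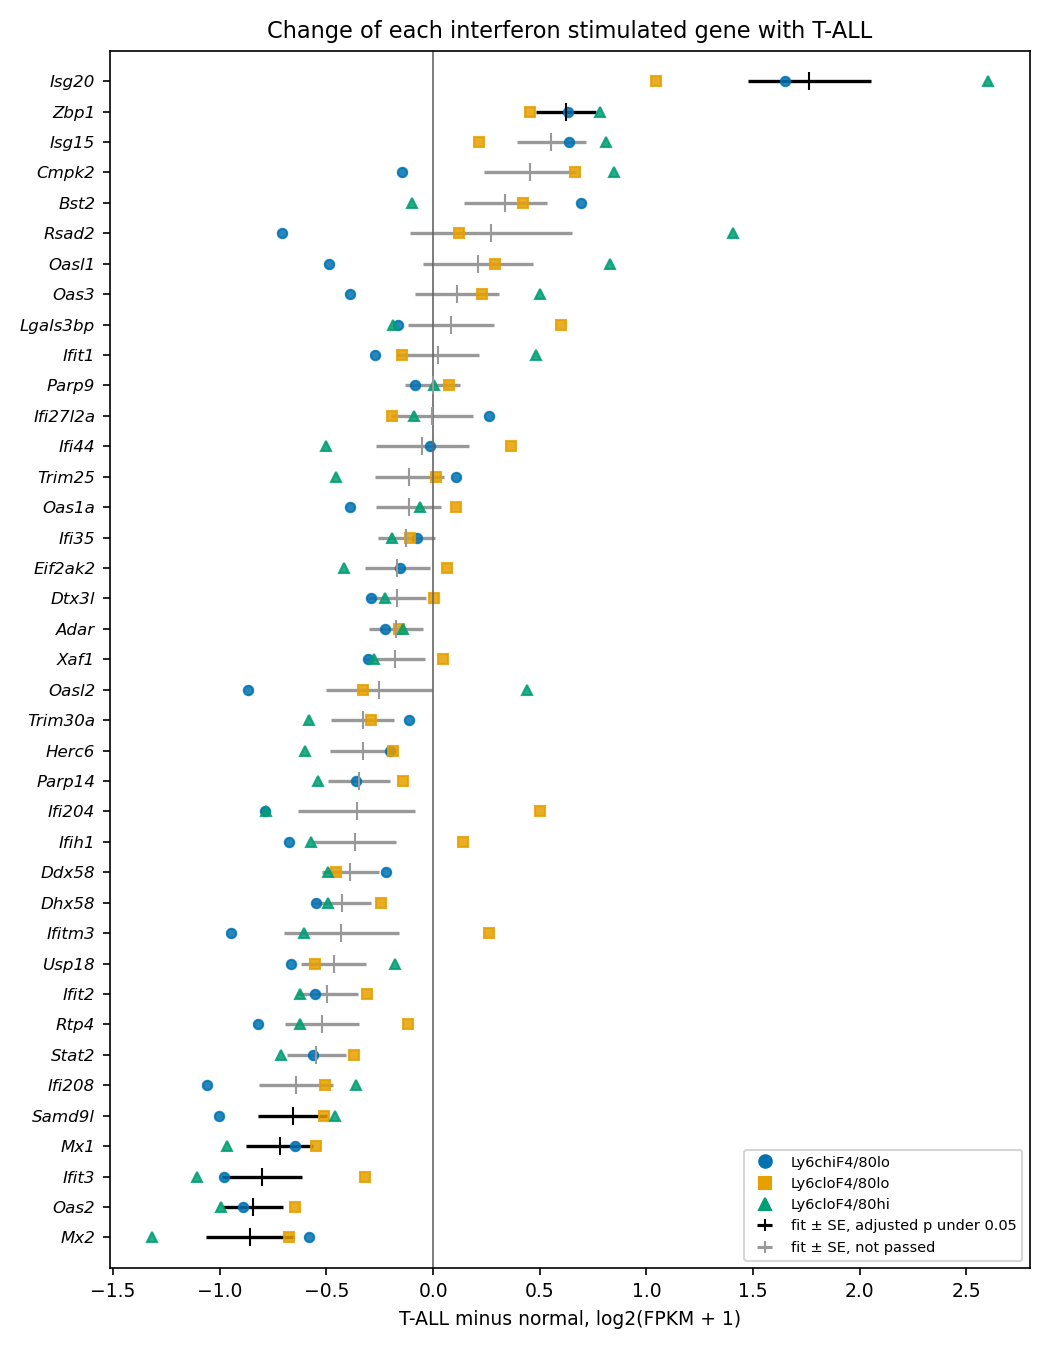
T-ALL minus normal difference in log2(FPKM + 1) for each of the 39 genes, ordered by the fitted change, with 1 colored symbol for each population and a vertical tick with a bar for the limma fit over 3 libraries per state ± its SE (black where the adjusted p was under 0.05). Isg20 stands apart at the top, and the 5 genes that fell form the bottom of the plot.

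Mx1 and Mx2 belong to a family of dynamin-like GTPases that act against viruses. The C57BL/6 strain is known to carry a defective Mx1 allele. The transcripts of both genes are read here only as targets of interferon, not as a measure of antiviral function. Mx1 stood at 11.7, 11.2 and 13.1 FPKM in normal Ly6chiF4/80lo, Ly6cloF4/80lo and Ly6cloF4/80hi and at 7.13, 7.31 and 6.20 FPKM in the T-ALL libraries. The highest T-ALL value was below the lowest normal value, and the gene fell by 0.72 on the log2 scale (SE 0.16, limma adjusted p = 0.0384, 3 libraries per state). Mx2 stood at 5.68, 4.86 and 7.86 FPKM in the normal libraries and at 3.46, 2.67 and 2.55 FPKM in the T-ALL libraries, again without overlap (log2 -0.86, SE 0.21, limma adjusted p = 0.0475). Leaving out any 1 of the 6 libraries kept both below 0 but ended both calls, with limma adjusted p of 0.0708 to 0.153 for Mx1 and 0.0737 to 0.173 for Mx2. Mx2 also lost its call after median-ratio rescaling and after quantile normalization.

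Oas2 encodes one of the oligoadenylate synthetases, which make the messenger that activates RNase L on double-stranded RNA. It stood at 26.2, 15.7 and 18.5 FPKM in the normal libraries and at 13.6, 9.66 and 8.80 FPKM in the T-ALL libraries, in the same order of populations. Every T-ALL value was below every normal one, and Oas2 fell by 0.84 (SE 0.14, limma adjusted p = 0.0223, 3 libraries per state). The call was lost without normal or T-ALL Ly6chiF4/80lo (log2 -0.82, adjusted p = 0.0581 and 0.0563) and without normal or T-ALL Ly6cloF4/80hi (log2 -0.77, adjusted p = 0.0947 and 0.0846). Oas3, another family member, had a fitted log2 of 0.11, Oasl1 of 0.21, Oas1a of -0.11 and Oasl2 of -0.25, and none of these 4 passed (limma adjusted p = 0.708, 0.588, 0.619 and 0.503).

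The IFIT proteins bind viral RNA and hinder its translation. Ifit3 stood at 47.5, 37.1 and 68.5 FPKM in the normal libraries and at 23.5, 29.5 and 31.3 FPKM in the T-ALL libraries. It fell by 0.80 (SE 0.19, limma adjusted p = 0.0448, 3 libraries per state), with no overlap between the states. Its neighbour Ifit3b, a near copy that can share reads with it and was looked at after its values were seen, stood at 18.6, 11.8 and 26.2 FPKM in the normal libraries and at 6.18, 8.04 and 7.77 FPKM in the T-ALL libraries (log2 -1.19, SE 0.24, limma adjusted p = 0.0323). The Ifit3 call was lost without normal or T-ALL Ly6chiF4/80lo (log2 -0.71, adjusted p = 0.117 and 0.116) and without normal or T-ALL Ly6cloF4/80hi (log2 -0.65, adjusted p = 0.169 and 0.161). The Ifit3b call was lost without the same libraries (log2 -1.07, adjusted p = 0.0908 and 0.0876, and log2 -0.97, adjusted p = 0.137 and 0.123). Ifit2, at 15.2, 11.8 and 13.8 FPKM in the normal libraries and at 10.0, 9.32 and 8.63 FPKM in the T-ALL libraries, had separate groups but did not pass (log2 -0.50, limma adjusted p = 0.0702). Ifit1, the other family member, stood at 7.73 to 10.7 FPKM in the normal libraries and at 6.67 to 11.2 FPKM in the T-ALL libraries, and its groups overlapped.

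Samd9l, a cytosolic protein that restrains virus growth, stood at 49.9, 48.1 and 37.8 FPKM in the normal libraries and at 24.4, 33.4 and 27.3 FPKM in the T-ALL libraries. It fell by 0.66 (SE 0.16, limma adjusted p = 0.0486, 3 libraries per state). Without any 1 of the 6 libraries it had an adjusted p of 0.0962 to 0.115 and did not pass.

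Isg20 made the largest change. This exonuclease degrades single-stranded RNA, and its level went from 59.7 to 189.5 FPKM in Ly6chiF4/80lo, from 30.9 to 64.6 FPKM in Ly6cloF4/80lo and from 20.3 to 128 FPKM in Ly6cloF4/80hi. The ratio of T-ALL to normal was 3.17, 2.09 and 6.32 in that order, and the fitted change was 1.76 (SE 0.29, limma adjusted p = 0.0214, 3 libraries per state). It passed without each of the 6 libraries in turn (log2 1.35 to 2.12, limma adjusted p = 0.0139 to 0.0460) but not without the block (0.175) or without a filter on low values (0.0591). Plasma cell markers moved with it: their sum over 7 genes went from 5866 to 14684, from 734 to 1723 and from 463 to 1678 FPKM in the same order of populations, none of the 7 was at 0 in any library, and 6 of them rose. They were not alone. The cell cycle, myeloid progenitor and erythroid sums given above also rose in all 3 populations, and the red pulp macrophage sum fell in all 3. The part of any of these lists in the Isg20 change was not tested.

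Zbp1, a sensor of Z-form nucleic acid that can start necroptosis, went from 108 to 169 FPKM in Ly6chiF4/80lo, from 54.6 to 75.3 FPKM in Ly6cloF4/80lo and from 26.5 to 46.3 FPKM in Ly6cloF4/80hi. It was higher in T-ALL in all 3 populations and rose by 0.62 (SE 0.14, limma adjusted p = 0.0419, 3 libraries per state), although the levels of the states overlapped because the populations differ. Without any 1 of the 6 libraries the log2 was 0.55 to 0.71 and the gene did not pass (limma adjusted p = 0.0849 to 0.171), nor did it after quantile normalization.

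None of the other cytosolic sensors among the members passed. Their fitted changes with T-ALL were negative, although Ifih1 and Ifi204 were higher in Ly6cloF4/80lo. Ddx58 (now also named Rigi), the RNA helicase RIG-I, stood at 25.5, 28.5 and 27.9 FPKM in the normal libraries and at 21.8, 20.5 and 19.6 FPKM in the T-ALL libraries (log2 -0.39, SE 0.13, limma adjusted p = 0.101). Dhx58, its regulator LGP2, stood at 32.3, 28.6 and 37.4 FPKM against 21.8, 24.0 and 26.4 FPKM (log2 -0.43, SE 0.14, adjusted p = 0.0839). Both had states that did not overlap. Ifih1, which encodes MDA5, was lower in Ly6chiF4/80lo and Ly6cloF4/80hi (17.9 to 10.8 and 25.4 to 16.8 FPKM) but not in Ly6cloF4/80lo (13.9 and 15.4 FPKM). The HIN-200 genes Ifi204 and Ifi208, of a family that binds DNA, share sequence with their neighbours. Ifi208 stood at 35.0, 32.2 and 26.4 FPKM in the normal libraries and at 16.3, 22.4 and 20.3 FPKM in the T-ALL libraries (log2 -0.64, SE 0.17, adjusted p = 0.0600), and Ifi204 at 93.2, 16.7 and 78.7 FPKM in the normal libraries and at 53.5, 24.0 and 45.3 FPKM in the T-ALL libraries (log2 -0.36, SE 0.27, adjusted p = 0.389).

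Isg15 and its partners did not move as one. Isg15, the ubiquitin-like modifier, stood at 28.2, 26.2 and 34.0 FPKM in the normal libraries and at 44.4, 30.5 and 60.4 FPKM in the T-ALL libraries (log2 0.55, SE 0.16, limma adjusted p = 0.0698). Usp18, the protease that removes ISG15 and also restrains the receptor, stood at 33.3, 44.0 and 25.0 FPKM in the normal libraries and at 20.6, 29.6 and 22.0 FPKM in the T-ALL libraries (log2 -0.47, SE 0.15, adjusted p = 0.0864). Isg15 was thus higher and Usp18 lower in T-ALL in all 3 populations, and neither passed. Herc6, a ligase for ISG15 in the mouse, stood at 8.23 to 15.6 FPKM in the normal libraries and at 7.03 to 9.99 FPKM in the T-ALL libraries. The ubiquitin ligases Trim25, which acts on RIG-I, and Trim30a had fitted log2 values of -0.11 and -0.33 (adjusted p = 0.645 and 0.170).

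Stat2, which encodes a subunit of ISGF3, stood at 40.0, 40.5 and 48.5 FPKM in the normal libraries and at 26.7, 31.1 and 29.3 FPKM in the T-ALL libraries. The states did not overlap, and the value missed the threshold (log2 -0.55, SE 0.14, limma adjusted p = 0.0517). Over 13 alternatives its adjusted p lay between 0.0438 and 0.199, and it passed with a pseudocount of 0.1, with a mean of at least 5 FPKM and after quantile normalization. Parp9 and Dtx3l, which form a complex of an ADP-ribosyltransferase and a ubiquitin ligase, stayed within narrow ranges, 30.0 to 37.6 FPKM and 29.6 to 36.3 FPKM over the 6 libraries. Parp14, a related enzyme, stood at 15.9 to 20.9 FPKM in the normal libraries and at 14.0 to 15.0 FPKM in the T-ALL libraries (log2 -0.35, adjusted p = 0.146). Ifi35 was among the steadiest members, at 60.3 to 71.3 FPKM. Adar, which edits adenosine in double-stranded RNA, stood at 29.5 to 36.4 FPKM in the normal libraries and at 26.7 to 31.0 FPKM in the T-ALL libraries, and the RNA-dependent kinase Eif2ak2 at 12.6 to 16.4 and 12.1 to 13.3 FPKM.

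Among the membrane and secreted products, the populations differed in sign. Bst2, the tetherin that holds budding virus at the cell surface and a marker of plasmacytoid dendritic cells and plasma cells in the mouse, went from 157 to 254 FPKM in Ly6chiF4/80lo and from 75.0 to 101 FPKM in Ly6cloF4/80lo, and stood at 143 and 133 FPKM in Ly6cloF4/80hi. Ifitm3 went from 1381 to 715 FPKM in Ly6chiF4/80lo, from 406 to 487 FPKM in Ly6cloF4/80lo and from 369 to 242 FPKM in Ly6cloF4/80hi. Lgals3bp, a secreted glycoprotein, had its one sizeable difference in Ly6cloF4/80lo (58.4 to 88.9 FPKM). Rtp4, a chaperone of receptors, had lower values in all 3 populations (73.0, 44.6 and 77.3 FPKM in normal, 40.9, 41.0 and 49.9 FPKM in T-ALL). None of these 4 passed over the 3 populations (log2 0.34, -0.43, 0.08 and -0.52, limma adjusted p = 0.258, 0.30, 0.794 and 0.0946). Cmpk2, a nucleotide kinase encoded next to Rsad2, stood at 20.4, 11.1 and 11.8 FPKM in the normal libraries and at 18.3, 18.2 and 22.1 FPKM in the T-ALL libraries (log2 0.46, adjusted p = 0.186). Of the remaining members, Xaf1 stood at 20.3 to 26.1 FPKM over the 6 libraries.

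Inside a single population each state has 1 library, which allows no test, and only values are given. The median log2 change of the 39 genes was -0.36 in Ly6chiF4/80lo, -0.11 in Ly6cloF4/80lo and -0.36 in Ly6cloF4/80hi, beside -0.07, 0.00 and 0.02 over all tested genes. Lower values in T-ALL were found for 33, 20 and 29 of the 39 in that order. Over all tested genes the shares with lower values were about 55%, 50% and 48%. After median-ratio rescaling the medians of the 39 genes were -0.30, -0.15 and -0.42, and after quantile normalization -0.34, -0.19 and -0.48. Few members reached a 2-fold difference in FPKM + 1, the scale of these counts. In Ly6chiF4/80lo 1 of 38 members with at least 5 FPKM in a library was 2-fold higher (Isg20) and 2 were 2-fold lower (Ifi208 and Samd9l), against 7.51% and 4.46% of all such genes. In Ly6cloF4/80lo 1 of 37 was higher (Isg20) and 0 were lower, against 5.69% and 1.53%. In Ly6cloF4/80hi 2 of 39 were higher (Isg20 and Rsad2) and 2 were lower (Ifit3 and Mx2), against 10.8% and 6.55%. As plain FPKM ratios of T-ALL to normal, Ifit3 in Ly6chiF4/80lo (0.496) and Mx1 (0.475) and Oas2 (0.476) in Ly6cloF4/80hi were also past 2-fold lower.

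**Figure D3:**
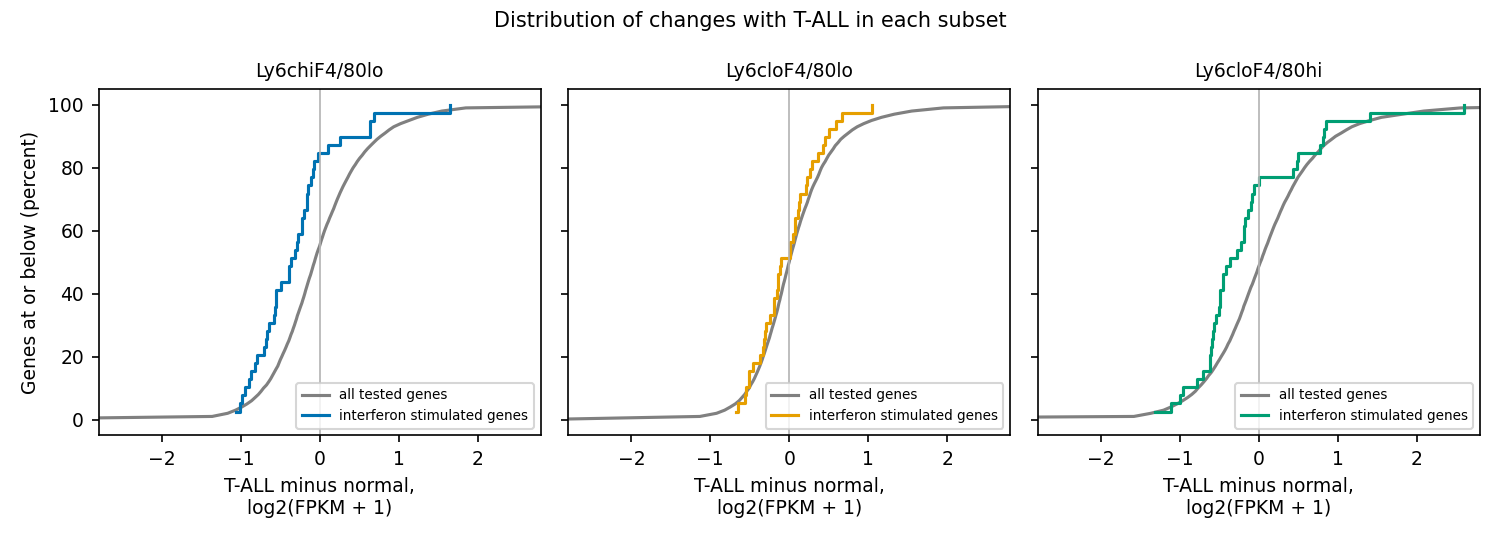
Cumulative share of genes (percent) by their T-ALL minus normal difference in log2(FPKM + 1) in each population, for the 39 interferon stimulated genes (colored steps) and all 11616 tested genes (gray line), from 1 library per state. The steps lie to the left of the gray line over most of their range in Ly6chiF4/80lo and Ly6cloF4/80hi and close to it in Ly6cloF4/80lo.

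Rsad2, which encodes the antiviral enzyme viperin, differed most between populations. It went from 12.7 to 7.35 FPKM in Ly6chiF4/80lo and from 16.1 to 44.4 FPKM in Ly6cloF4/80hi, and stood at 6.65 and 7.31 FPKM in Ly6cloF4/80lo. The log2 differences of -0.71, 1.41 and 0.12 rest on 1 library each and were not tested against one another. Over the 3 populations Rsad2 did not pass (log2 0.27, SE 0.38, limma adjusted p = 0.637). In T-ALL Ly6cloF4/80hi about 1417 fragments support the value, so counting error is small beside the difference. The erythroid sum was 5276 FPKM in the normal and 41329 FPKM in the T-ALL library of that population. It also went from 683 to 6491 FPKM in Ly6cloF4/80lo. Other lists moved in Ly6cloF4/80hi too: the plasma cell sum from 463 to 1678 FPKM and the cell cycle sum from 207 to 1086 FPKM. The red pulp macrophage sum fell there from 19892 to 7904 FPKM. The part of any of these lists in the Rsad2 value was not tested. Oasl1, Oas3 and Cmpk2 shared its signs, with log2 differences of -0.49, 0.29 and 0.83 for Oasl1, -0.39, 0.23 and 0.50 for Oas3 and -0.14, 0.67 and 0.85 for Cmpk2 in Ly6chiF4/80lo, Ly6cloF4/80lo and Ly6cloF4/80hi. Oasl2 was lower in Ly6chiF4/80lo and Ly6cloF4/80lo (-0.87 and -0.33) and higher in Ly6cloF4/80hi (0.44). Ifi44 was lower in Ly6cloF4/80hi (5.60 to 3.66 FPKM) and at 1.79 and 2.59 FPKM in Ly6cloF4/80lo.

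Against Ly6chiF4/80lo, Ly6cloF4/80hi had lower Zbp1, Oas3, Oasl2 and Ifitm3 and higher Lgals3bp, and 34 of the 39 did not pass (limma on all 6 libraries with state as a block, adjusted p under 0.05). That is 4 lower and 1 higher, against 5.68% and 7.10% of all tested genes, and 5 of 39 in either direction equal the 12.8% of all tested genes. Zbp1 had the largest of these differences, with 108 and 169 FPKM in normal and T-ALL Ly6chiF4/80lo against 26.5 and 46.3 FPKM in Ly6cloF4/80hi (log2 -1.92, SE 0.17, limma adjusted p = 0.00220, 2 libraries per population). It kept its call without each single library (adjusted p = 0.00236 to 0.0166) and lost it without the state block (0.0790). Oas3 stood at 35.3 and 26.7 FPKM against 7.97 and 11.7 FPKM (log2 -1.57, SE 0.24, adjusted p = 0.0125), and was lost without normal Ly6cloF4/80hi (log2 -1.28, adjusted p = 0.0639). Ifitm3 stood at 1381 and 715 FPKM against 369 and 242 FPKM (log2 -1.73, SE 0.33, adjusted p = 0.0248), and was lost without normal Ly6chiF4/80lo (log2 -1.34, 0.127), normal Ly6cloF4/80hi (-1.86, 0.102) or T-ALL Ly6cloF4/80hi (-1.60, 0.124). Oasl2 had 51.8 and 27.9 FPKM against 12.9 and 17.8 FPKM (log2 -1.28, SE 0.31, adjusted p = 0.0450). It was lost without normal Ly6chiF4/80lo (-0.81, 0.176), normal Ly6cloF4/80hi (-0.76, 0.179), or normal or T-ALL Ly6cloF4/80lo (-1.28, 0.0840 and 0.0809).

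Lgals3bp was the member that passed as higher in Ly6cloF4/80hi against both other populations. Rsad2 had larger fitted differences (log2 1.38 against Ly6chiF4/80lo and 1.81 against Ly6cloF4/80lo) but did not pass (limma adjusted p = 0.112 and 0.104). The Lgals3bp level was 215 FPKM in normal Ly6cloF4/80hi and 189.0 FPKM in T-ALL Ly6cloF4/80hi, against 98.6 and 87.7 FPKM in Ly6chiF4/80lo and 58.4 and 88.9 FPKM in Ly6cloF4/80lo. The difference passed against Ly6chiF4/80lo (log2 1.11, SE 0.25, limma adjusted p = 0.0371, 2 libraries per population) and against Ly6cloF4/80lo (log2 1.47, SE 0.25, adjusted p = 0.0335). The first call was lost after median-ratio rescaling (adjusted p = 0.0513) and without normal or T-ALL Ly6chiF4/80lo (log2 1.29 and 0.92, adjusted p = 0.0729 and 0.171) or normal or T-ALL Ly6cloF4/80hi (0.91 and 1.31, adjusted p = 0.182 and 0.0660). The second was lost without normal Ly6cloF4/80lo (log2 1.08, 0.186) or normal Ly6cloF4/80hi (1.27, 0.222). In the comparison of Ly6cloF4/80hi with Ly6cloF4/80lo it was the only member of 39 that passed, against 3.56% of tested genes in either direction (2.66% higher and 0.904% lower). At an unadjusted p under 0.05, 9 of the 39 differed, against 19.0% of tested genes.

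**Figure D4:**
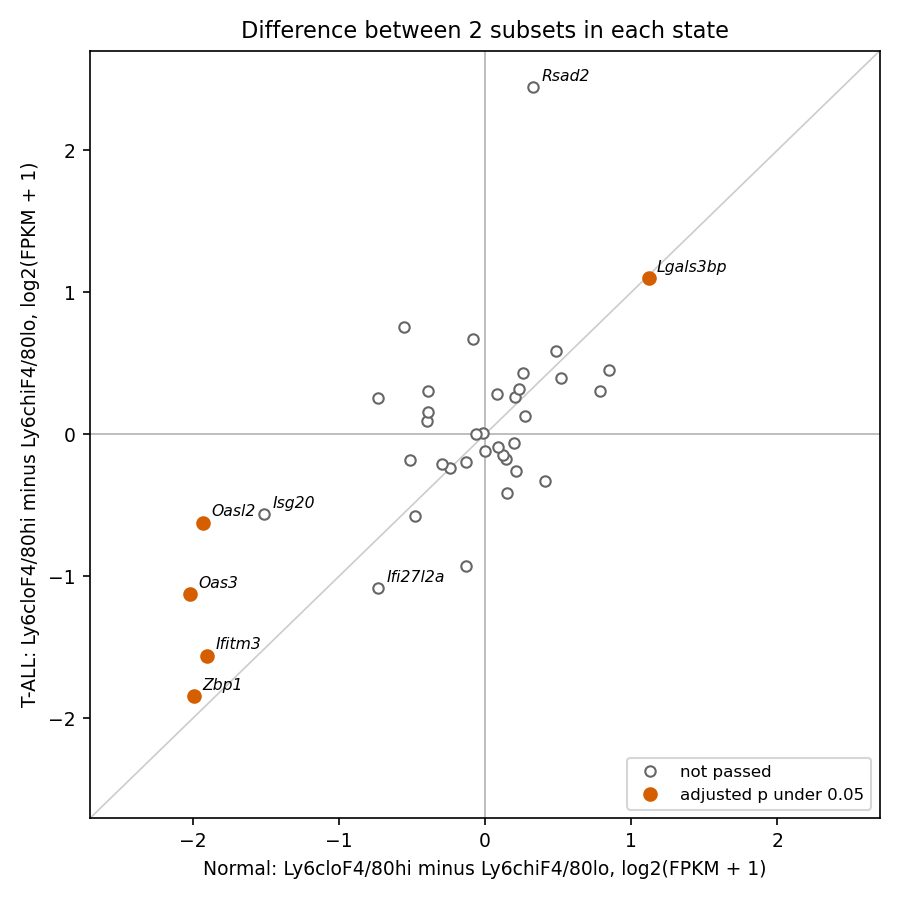
Difference of Ly6cloF4/80hi minus Ly6chiF4/80lo in log2(FPKM + 1) for the 39 genes, in normal (horizontal axis) and in T-ALL (vertical axis), with 1 library per population and state the diagonal marking equal differences and filled points for genes that passed over both states. Zbp1, Ifitm3, Oas3 and Oasl2 lie at the lower left, Lgals3bp lies close to the diagonal at the upper right, and Rsad2 stands high above it.

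Ly6cloF4/80lo had lower Zbp1, Ifi204 and Bst2 than Ly6chiF4/80lo and no member that was higher (3 of 39, against 4.73% of tested genes in either direction), against 2.05% of tested genes lower and 2.68% higher. At an unadjusted p under 0.05, 11 of the 39 differed in either direction, against 26.3% of tested genes. Zbp1 stood at 54.6 and 75.3 FPKM in Ly6cloF4/80lo (log2 -1.06, SE 0.17, limma adjusted p = 0.0291, 2 libraries per population), between the levels of the other populations in each state. Ifi204 stood at 16.7 and 24.0 FPKM, against 93.2 and 53.5 FPKM in Ly6chiF4/80lo (log2 -1.77, SE 0.34, adjusted p = 0.0433), and Bst2 at 75.0 and 101 FPKM against 157 and 254 FPKM (log2 -1.19, SE 0.24, adjusted p = 0.0479). Without either library of Ly6chiF4/80lo or of Ly6cloF4/80lo in turn the log2 of Zbp1 was -1.19 to -0.94 and it did not pass (adjusted p = 0.0737 to 0.147), nor did Bst2 (log2 -1.45 to -0.92, adjusted p = 0.0572 to 0.238). Ifi204 was lost without normal or T-ALL Ly6chiF4/80lo (-1.44 and -2.09, 0.129 and 0.0926), normal Ly6cloF4/80lo (-1.12, 0.159) or normal Ly6cloF4/80hi (-1.77, 0.0622). Both Ly6chiF4/80lo libraries lay above the other 4 for Oas1a, Oas3, Oasl2, Zbp1, Bst2, Ifitm3 and Ifi27l2a, which is 7 of 39 (17.9%) against 8.39% of tested genes. Parp9 and Herc6 lay lowest in both Ly6chiF4/80lo libraries (18.1% of tested genes did). Oas1a, Rsad2, Ifi44, Bst2 and Ifi204 lay lowest in both Ly6cloF4/80lo libraries, which is 5 of 39 (12.8%) against 3.50%, and none lay highest there (13.2%). In Ly6cloF4/80hi both libraries lay highest for Rsad2, Ifi44, Parp9 and Lgals3bp (10.3% against 9.27%) and lowest for Oas3, Oasl2, Zbp1 and Ifitm3 (10.3% against 9.87%). In Ly6chiF4/80lo, Siglech and Klk1, markers of plasmacytoid dendritic cells, were also high: Siglech stood at 45.2 and 30.3 FPKM against 2.12 to 4.13 FPKM in the other 4 libraries, and Klk1 at 25.7 and 27.2 FPKM against at most 1.65 FPKM, with 0 in normal Ly6cloF4/80hi. Of the 8 markers on that list, no other was at 0, and the list summed to 418 to 728 FPKM over the 6 libraries, most of it Ly6d, which B cells share. Other lists were high in Ly6chiF4/80lo too. The plasma cell sum was 5866 and 14684 FPKM there, against 463 to 1723 FPKM in the other 4 libraries. The neutrophil sum was 13569 and 45407 FPKM, against 132 to 421 FPKM. The part of any of these lists in the higher Bst2 and Zbp1 of Ly6chiF4/80lo was not tested.

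Upstream of these genes, 1 of 9 genes of the receptor and signalling chain fell with T-ALL and none rose, where 12.1% of all tested genes passed in either direction. All 9 had a fitted log2 below 0 (median -0.38), against 52.5% of tested genes. Ifnar1, a receptor subunit, stood at 44.8, 37.2 and 42.2 FPKM in the normal libraries and at 26.4, 28.1 and 24.6 FPKM in the T-ALL libraries (log2 -0.63, SE 0.14, limma adjusted p = 0.0419, 3 libraries per state), without overlap. Without any 1 of the 6 libraries Ifnar1 did not pass (adjusted p = 0.0688 to 0.160). Irf7, the factor that amplifies the response, stood at 156, 79.5 and 151 FPKM against 90.6, 67.9 and 91.2 FPKM and did not pass (adjusted p = 0.0709). The interferons themselves were at the edge of detection: of 17 type I interferon genes 7 were listed in at least 1 library, none above 1.12 FPKM, and none could be tested. Ifnb1 stood at 0.18, 0.17 and 0.18 FPKM in the normal libraries and was listed in none of the T-ALL libraries.

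Of 13 genes for sensing of nucleic acid, 1 rose, 0 fell and 12 did not pass (median log2 -0.25). The one was Ikbke, a kinase that activates IRF3, at 7.05, 4.27 and 4.75 FPKM in the normal libraries and at 19.3, 13.4 and 8.50 FPKM in the T-ALL libraries (log2 1.17, SE 0.19, limma adjusted p = 0.0209). It was lost without normal or T-ALL Ly6chiF4/80lo (log2 1.09, adjusted p = 0.0559 and 0.0587) and without normal or T-ALL Ly6cloF4/80lo (log2 1.03, adjusted p = 0.0516 and 0.0524). None of 8 brakes on the pathway passed (median 0.11), nor did any of 4 enzymes of ISG15 conjugation (median -0.04). The 17 interferon gamma inducible GTPases, a neighbouring set of interferon targets, had a median of 0.13, and 4 of them passed, where 8.20% of all tested genes rose and 3.94% fell. Tgtp1 (log2 1.56, limma adjusted p = 0.0248) and Igtp (0.67, 0.0344) rose, and Gbp9 (-0.84, 0.0195) and Gbp8 (-0.70, 0.04996) fell. All 4 lost the call without 1 or more single libraries: Tgtp1 without either Ly6cloF4/80lo library (0.0631 and 0.0607), Gbp9 without either Ly6cloF4/80hi library (0.0819 and 0.0756), Gbp8 without any library of Ly6cloF4/80lo or Ly6cloF4/80hi (0.123 to 0.189) and Igtp without each of the 6 (0.0788 to 0.115). The difference between their median and the -0.18 of the 39 genes was not tested.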

How the data were processed

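RNA from sorted spleen macrophages was sequenced in 6 libraries, and the authors deposited 1 table of FPKM values for each, for which the submitters' processing notes name Bowtie2 2.2.5 and RSEM. No source used here gives the genome build or annotation. Genes absent from a file were set to 0 FPKM. Of 16058 identifiers 16017 were named from a RefSeq table of GRCm38.p6, used for names and promoter sequences only. One gene of the signalling list is not reported here by name. Members and lists were chosen with earlier results of these data known.

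Values were analysed as log2(FPKM + 1), which understates changes of low genes, for the 11616 genes of at least 1 FPKM in at least 2 libraries. All 39 members passed this filter. limma 3.58.1 in R 4.3.3 (statmod 1.5.0) fitted population and state to the 6 libraries with a trended, robust prior (2 residual degrees of freedom). An adjusted p under 0.05 passed. An exact test of 3 against 3 libraries could not go below p = 0.1. The genes named are all 39 members, genes of the pathway lists and the sort antigens Ly6c2 and Adgre1. Siglech, Klk1 and Ly6d were named from the list of plasmacytoid dendritic cell markers with their values known. Any other gene is said to be looked at after values were seen. The fit was tested on simulated data, where the share of false calls was above the nominal threshold in every run, so calls close to the threshold are less certain. Depth came from genes with 1 annotated transcript in GENCODE M21. Annotated length exceeds effective length, so fragment numbers of short genes are too high. The alternatives were another pseudocount, filters, scalings, prior and block, and each library left out in turn. Python 3.11.15, numpy 2.4.6, pandas 2.3.3 and matplotlib 3.10.9 were used for the rest.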

Additional observations from a re-analysis of the deposited data

Results flagged for a closer look

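Rsad2 changed in opposite directions in 2 populations by more than 0.5 on the log2 scale: its log2 change with T-ALL was 1.41 in Ly6cloF4/80hi and -0.71 in Ly6chiF4/80lo. Each value compares 1 library per state, and the difference was not tested. No other member of the 39 met this rule, but 2 fell just short of it. Ifi204 had -0.79 in Ly6chiF4/80lo, 0.4999 in Ly6cloF4/80lo and -0.78 in Ly6cloF4/80hi. Oasl1 had -0.49 in Ly6chiF4/80lo and 0.83 in Ly6cloF4/80hi. With 1 library for each population and state, no group was large enough to look for single outlying samples.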

How the results depend on the processing

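No paired analysis was possible because the labels give no replicate numbers that tie libraries to mice, and each group holds 1 library. The population block compares the states within each gate, and all 7 T-ALL calls rest on it. Over 13 alternatives, the T-ALL count of 2 members higher and 5 lower became 0 and 0 with no filter on low values and 0 and 0 with no block, 1 and 2 without the trended and robust prior, and 1 higher after quantile normalization. With each library left out it was 1 higher and 0 to 2 lower. For Ly6cloF4/80hi against Ly6chiF4/80lo, 1 higher and 4 lower became 0 and 2 with no filter, 0 and 0 with no block, and 0 higher after median-ratio rescaling; with each library left out they were 0 to 1 and 1 to 4. For Ly6cloF4/80lo against Ly6chiF4/80lo, 3 lower became 0 with no filter, 1 without the trended and robust prior and 0 with no block, and 0 to 5 with each library left out. For Ly6cloF4/80hi against Ly6cloF4/80lo, 1 higher became 0 with no filter and 0 with no block, and 0 to 2 with each library left out. Within populations, 2 members 2-fold lower in Ly6chiF4/80lo became 0 after median-ratio rescaling, 1 higher in Ly6cloF4/80lo became 0 after quantile normalization, and 2 lower in Ly6cloF4/80hi became 4 with a pseudocount of 0.1, 4 after median-ratio rescaling and 4 after quantile normalization. The promoter motif with 3 bases between the repeats was found in 6 of the 28 members with a promoter, in place of 14. That is 21.4%, against 3.17% of all genes with a promoter. With a library left out fewer libraries were fitted, and with no filter more genes were tested. The cause of these differences was not tested.

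Members with fitted T-ALL changes near 0 changed sign when 1 library was left out: the range was -0.21 to 0.17 for Ifit1, -0.22 to 0.023 for Oas1a, -0.082 to 0.36 for Oas3, -0.10 to 0.56 for Oasl1, -0.60 to 0.056 for Oasl2, -0.29 to 0.76 for Rsad2, -0.26 to 0.17 for Ifi44, -0.040 to 0.039 for Parp9, -0.14 to 0.088 for Ifi27l2a, -0.22 to 0.061 for Trim25 and -0.18 to 0.22 for Lgals3bp. Lgals3bp also had -0.049 after quantile normalization. None of these 11 passed under any alternative. Mx2 and Ifi44 average under 5 FPKM and have no value under that filter.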

Other observations

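Near copies of some members are listed under their own identifiers and were looked at after the members' values were known. Of the copies tested only Ifit3b, given above, Ifitm1 and Ifi213 passed, where 12.1% of all tested genes passed in either direction. The others did not pass, among them the Ifitm3 relatives Ifitm2 and Ifitm6 (log2 0.17 and -0.09, limma adjusted p = 0.704 and 0.784). Ifitm1, a neighbour of Ifitm3 in the same gene cluster, stood at 17.0, 27.7 and 11.1 FPKM in normal Ly6chiF4/80lo, Ly6cloF4/80lo and Ly6cloF4/80hi and at 26.7, 86.2 and 31.4 FPKM in the T-ALL libraries, and rose by 1.21 (SE 0.21, limma adjusted p = 0.0235, 3 libraries per state), while Ifitm3 did not pass. The Ifitm1 call was lost without normal or T-ALL Ly6cloF4/80lo (log2 1.02, adjusted p = 0.0594 and 0.0572) and without normal or T-ALL Ly6cloF4/80hi (log2 1.11, adjusted p = 0.113 and 0.0971). Ifi213, a HIN-200 gene of the same family as Ifi204 and Ifi208, stood at 16.5, 13.3 and 17.1 FPKM in the normal libraries and at 7.21, 10.3 and 8.62 FPKM in the T-ALL libraries (log2 -0.78, SE 0.19, adjusted p = 0.0469), and its adjusted p was 0.0378 to 0.170 with each library left out. Reads can be shared between such near copies, and how the authors' counting divided them is not given in the sources used here.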
